A study of Mus musculus with 6 samples.

Results

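Enteroendocrine cells are scattered hormone-secreting cells of the gut lining, and the genes described here are 10 of their hormone, granule and regulator genes: Chga, Chgb, Gcg, Pyy, Cck, Sst, Tph1, Insl5, Nts and Neurod1. They were chosen by symbol, and all 10 were found among the 25339 genes of the deposited table. The table gives messenger RNA levels in mouse colon as FPKM, fragments scaled to gene length and to library size, so levels of different genes can be compared per length. The 2 groups are colon of mice that received the solvent DMSO and colon of mice that received lenvatinib, a drug that blocks several receptor tyrosine kinases, with 3 libraries each. The labels give the tissue and the treatment, and no strain, age, dose, route or duration, and the title concerns colitis without the labels saying that colitis was induced in these animals.

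Enteroendocrine cells arise from secretory progenitors of the crypt, first under NEUROG3 and then under factors such as NEUROD1. They store peptides with chromogranins in dense granules and release them when they sense nutrients, microbial products or nerve signals. In the colon, L cells make glucagon-like peptides from Gcg, peptide YY from Pyy and insulin-like peptide 5 from Insl5, enterochromaffin cells make serotonin with the enzyme encoded by Tph1, and D cells make somatostatin from Sst. Cck and Nts, for cholecystokinin and neurotensin, are used mainly by enteroendocrine cells of the small intestine.

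The recovered depth was 37634680 to 39260883 reads in genes per library. DMSO 1 stood apart from the other 5 libraries in sex-linked transcripts. Ddx3y was at 6.54 FPKM there and listed at 0 elsewhere, and Xist at 0.00147 FPKM against 15.9 to 19.8. No lenvatinib library had this male-type pattern, so the groups are not balanced for it. In both groups libraries 2 and 3 were almost the same. The coefficient of variation between them beyond counting noise was 3.35% for DMSO and 2.98% for lenvatinib. For the other pairs it was 10.2 to 16.2%. Lenvatinib 1 was nearer to the DMSO libraries (10.5 to 10.7%) than to lenvatinib 2 and 3 (15 and 15.1%). The labels call the libraries biological replicates without naming animals, so p-values measure only the spread between these libraries, part of which may be technical. If libraries 2 and 3 of a group are not independent, the p-values are too small. Of the 11774 genes averaging 1 FPKM or more, 239 (2.03%) passed limma on log2(FPKM + 1) with Benjamini-Hochberg adjustment at 0.05, 1.1% higher and 0.934% lower with lenvatinib, and 27.5% had groups that did not overlap.

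None of the 8 tested enteroendocrine genes passed this test. The largest difference of the 8 was that of Nts, at 18.3 ± 7.34 FPKM (SD, n = 3) in DMSO and 7.67 ± 0.247 in lenvatinib. At an unadjusted p below 0.05 there were 2 genes, Nts and Gcg, both lower, against 22.0% of all genes tested, and these were also the 2 of 8 whose groups did not overlap, where 17.5% of all genes were lower without overlap. With voom on the recovered reads the count that passed was 0 as well. The median log2 fold change of the 8 genes, lenvatinib minus DMSO, was −0.12, against −0.07 over all genes tested. Insl5 and Neurod1 were under 1 FPKM on average and were not tested. In whole colon, fewer enteroendocrine cells and less RNA per cell cannot be told apart.

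**Figure D1:**
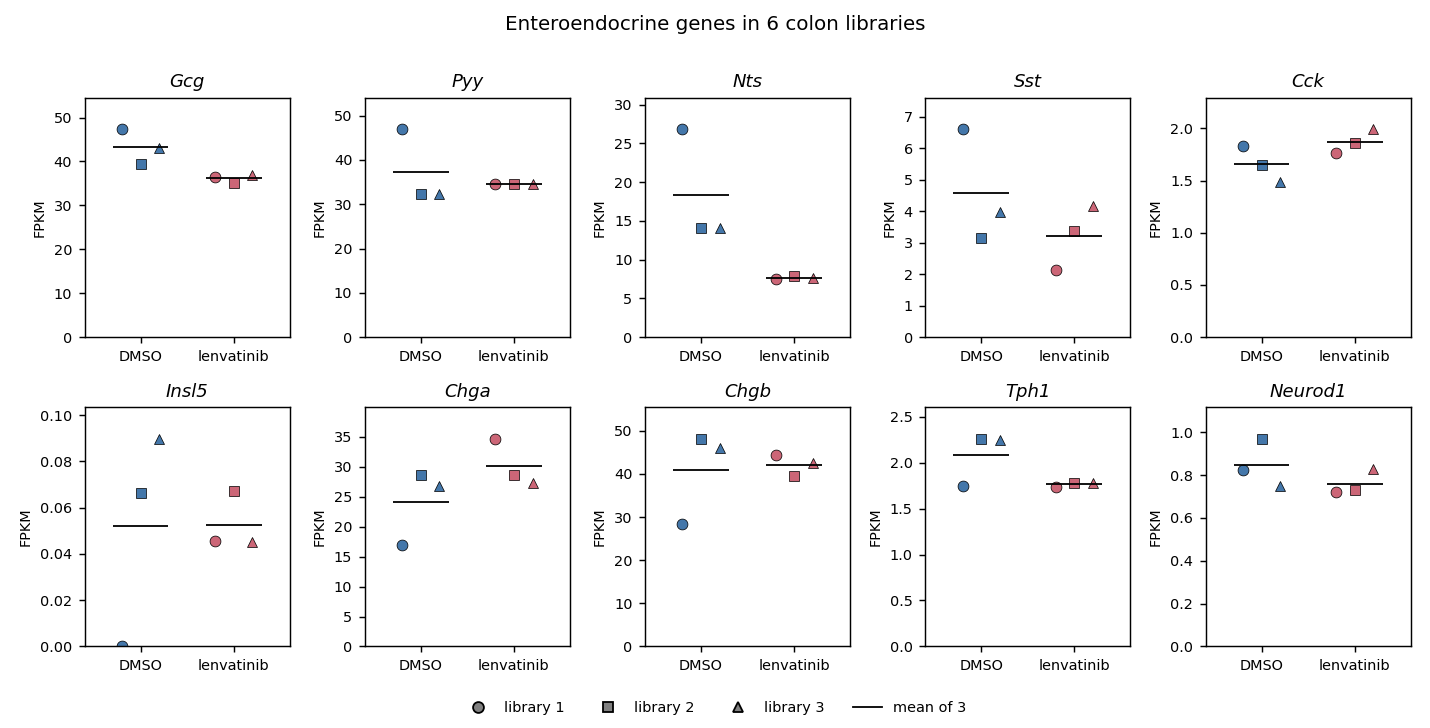
FPKM of the 10 genes (y axis, linear from 0) in the 3 DMSO and 3 lenvatinib libraries, with the library number shown by the symbol and the mean of 3 by the line. For Nts the lenvatinib libraries lie at 7.49 to 7.95 FPKM, below every DMSO library (14.1 to 26.8), and DMSO 1 lies away from DMSO 2 and 3 for Chga, Chgb, Pyy, Sst and Nts.

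In DMSO the order of mean levels per length was Gcg (43.2 FPKM), Chgb (40.9), Pyy (37.2), Chga (24.1), Nts (18.3), Sst (4.57), Tph1 (2.09), Cck (1.66), Neurod1 (0.847) and Insl5 (0.0520). The first 3 overlapped each other in the range of their libraries, and so did Chgb with Chga, Chga with Nts, and Tph1 with Cck. In lenvatinib the order was Chgb (42.2), Gcg (36.2), Pyy (34.5), Chga (30.2), Nts (7.67), Sst (3.21), Cck (1.87), Tph1 (1.76), Neurod1 (0.759) and Insl5 (0.0526), where Pyy overlapped Chga and Cck overlapped Tph1. Chgb was the most abundant of the 10 in every library but DMSO 1, where Gcg was. Sst, Neurod1 and Insl5 held ranks 6, 9 and 10 in all 6 libraries.

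The stretches of 250 bases before the start of 4 of these genes are shown, those of Nts and Gcg because their levels did not overlap between the groups, and those of Sst and Chgb because they hold a full cAMP response element. They come from RefSeq, build GRCm38.p6, which is not the GRCm39 build named for the study, and are written 5′ to 3′ on the strand of the gene. Capitals mark matches, on either strand, to the cAMP response element TGACGTCA, to CAGATG, an E-box of the kind bound by NEUROD1, and to the TATA box TATAAA.
Nts, chr10:102490419-102490668, minus strand: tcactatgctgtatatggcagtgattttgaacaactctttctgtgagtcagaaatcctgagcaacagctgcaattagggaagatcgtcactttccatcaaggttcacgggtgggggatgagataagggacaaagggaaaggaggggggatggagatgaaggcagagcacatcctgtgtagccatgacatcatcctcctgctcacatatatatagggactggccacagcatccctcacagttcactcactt
Gcg, chr2:62483654-62483903, minus strand: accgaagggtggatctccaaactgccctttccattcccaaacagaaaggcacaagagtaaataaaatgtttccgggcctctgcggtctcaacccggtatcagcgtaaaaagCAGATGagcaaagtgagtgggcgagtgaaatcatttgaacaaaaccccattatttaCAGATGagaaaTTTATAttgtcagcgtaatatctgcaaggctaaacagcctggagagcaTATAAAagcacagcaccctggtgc
Sst, chr16:23890845-23891094, minus strand: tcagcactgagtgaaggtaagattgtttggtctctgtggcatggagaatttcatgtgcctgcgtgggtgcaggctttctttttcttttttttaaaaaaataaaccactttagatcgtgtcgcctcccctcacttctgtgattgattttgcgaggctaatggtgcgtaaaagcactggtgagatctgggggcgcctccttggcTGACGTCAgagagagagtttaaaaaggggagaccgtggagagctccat
Chgb, chr2:132781392-132781641, plus strand: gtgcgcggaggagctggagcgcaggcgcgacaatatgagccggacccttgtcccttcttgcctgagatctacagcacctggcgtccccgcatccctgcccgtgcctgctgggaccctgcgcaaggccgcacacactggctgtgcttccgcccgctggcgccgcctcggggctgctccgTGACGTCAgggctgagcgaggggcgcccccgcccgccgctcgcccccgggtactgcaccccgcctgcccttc

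All 10 genes matched the promoter table, with 13 start sites. The cAMP response element was found before 2 of the 13 starts, those of Sst and Chgb, and before 1.55% of the 32851 starts of all genes. The E-box was found before 3 of the 13 (Cck, Gcg and 1 start of Insl5) and before 14.4% of all, and the TATA box before 3 of the 13 (Gcg and both starts of Insl5) and before 12.4% of all. Nts held no exact match to any of the 3 motifs in this window, and near matches were not searched. The bases at the Chgb start were not found near the start of a Chgb transcript, unlike those of the other stretches shown. No match overlapped that of another motif in the 4 stretches shown, and a match describes letters, not binding.

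Gcg encodes proglucagon, which L cells cut into the glucagon-like peptides that raise insulin secretion and maintain the mucosa. The DMSO libraries 1 to 3 held it at 47.3, 39.4 and 43.0 FPKM and the lenvatinib libraries 1 to 3 at 36.4, 35.2 and 37.0 FPKM. All 3 lenvatinib libraries were below all 3 DMSO libraries. The difference was −0.25 on the log2 scale (SE 0.0782, 95% interval −0.44 to −0.06) and did not pass (limma adjusted p = 0.160). Without DMSO 1 it was −0.18 (limma adjusted p = 0.190), and the groups overlapped when levels were scaled by median ratios or by quantiles, and in voom.

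Pyy encodes peptide YY, which L cells release with the glucagon-like peptides and which slows gut transit and reduces appetite. It measured 46.9, 32.3 and 32.4 FPKM in DMSO and 34.5 FPKM in each of the 3 lenvatinib libraries. The lenvatinib values lay between DMSO 1 and the other two DMSO libraries. The difference was −0.09 (95% interval −0.44 to 0.27, limma adjusted p = 0.734), and without DMSO 1 it took the other sign, at 0.09 (limma adjusted p = 0.307). Pyy and Gcg were at similar levels in each library, with a Pyy to Gcg ratio of 0.754 to 0.992 in DMSO and 0.931 to 0.981 in lenvatinib.

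Insl5, the third L cell hormone and one made mainly in the distal large intestine, was close to the limit of detection. It had 0, 3 and 4 reads in DMSO 1 to 3 and 2, 3 and 2 reads in lenvatinib 1 to 3, or at most 0.0898 FPKM. The 0 reads in DMSO 1 allow up to 0.0690 FPKM, taken as 3 reads and covering counting error only. No fold is given at this depth. The transcript of its receptor, Rxfp4, had 0 to 3 reads in every library.

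Nts encodes neurotensin, a peptide of enteroendocrine cells that acts on motility, secretion and fat uptake. Its level was 26.8, 14.1 and 14.1 FPKM in the DMSO libraries 1 to 3, from 1286, 707 and 692 reads. In the lenvatinib libraries 1 to 3 it was 7.49, 7.95 and 7.57 FPKM, from 362, 392 and 370 reads. The lenvatinib libraries lay close together and below every DMSO library, and DMSO 1 was 1.90 times the mean of DMSO 2 and 3. The lenvatinib mean was 0.418 times the DMSO mean. The log2 difference was −1.10 (SE 0.242, 95% interval −1.68 to −0.51), with a limma adjusted p = 0.0896 and an exact two-sided permutation p = 0.1, the smallest that 3 against 3 allows.

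The Nts call depended on the libraries and the settings used. Without DMSO 1 the difference was −0.80 and passed (limma adjusted p = 0.0115, where 2.29% of all genes passed). It also passed without lenvatinib 1 (adjusted p = 0.0317), with sample weights and without both libraries numbered 1, where 38.0, 64.4 and 62.2% of all genes passed. With libraries 2 and 3 averaged, 2 against 2, the difference was −1.25 (limma adjusted p = 0.695). It was lower in lenvatinib in all 21 alternatives, from −1.25 to −0.79.

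Sst encodes somatostatin, the D cell peptide that restrains the release of other gut hormones. It measured 6.60, 3.15 and 3.96 FPKM in DMSO and 2.12, 3.36 and 4.16 FPKM in lenvatinib, so the groups overlapped. The highest value was in DMSO 1 and the lowest in lenvatinib 1, which differ by 229 against 74 reads. The difference was −0.39 with a wide 95% interval of −1.06 to 0.28 (limma adjusted p = 0.412), and −0.14 without DMSO 1. Cck, for cholecystokinin, which contracts the gallbladder and stimulates pancreatic secretion, rested on 55 to 73 reads per library. It measured 1.83, 1.65 and 1.49 FPKM in DMSO and 1.76, 1.86 and 1.99 FPKM in lenvatinib, with a difference of 0.11 (95% interval −0.09 to 0.31, limma adjusted p = 0.426).

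The peptide genes were also set against each other within each library, a comparison chosen after the values were seen and given without a test. Summed over Gcg, Pyy, Nts, Sst, Cck and Insl5, the DMSO libraries held 129, 90.8 and 95.0 FPKM and the lenvatinib libraries 82.3, 82.9 and 85.2 FPKM. Of this sum, Nts made up 20.7, 15.6 and 14.8% in DMSO and 9.10, 9.59 and 8.88% in lenvatinib. The share of Pyy was 36.2, 35.6 and 34.1% in DMSO and 41.9, 41.6 and 40.4% in lenvatinib. Neither share overlapped between the groups, while that of Gcg did (36.5 to 45.2% and 42.4 to 44.2%). Shares of the same sum depend on each other, and a smaller Nts part enlarges the others. Pyy itself overlapped between the groups in FPKM and relative to Gcg (0.754 to 0.992 in DMSO and 0.931 to 0.981 in lenvatinib). Relative to Gcg, Nts was at 0.567, 0.359 and 0.328 in DMSO and at 0.206, 0.226 and 0.205 in lenvatinib.

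**Figure D2:**
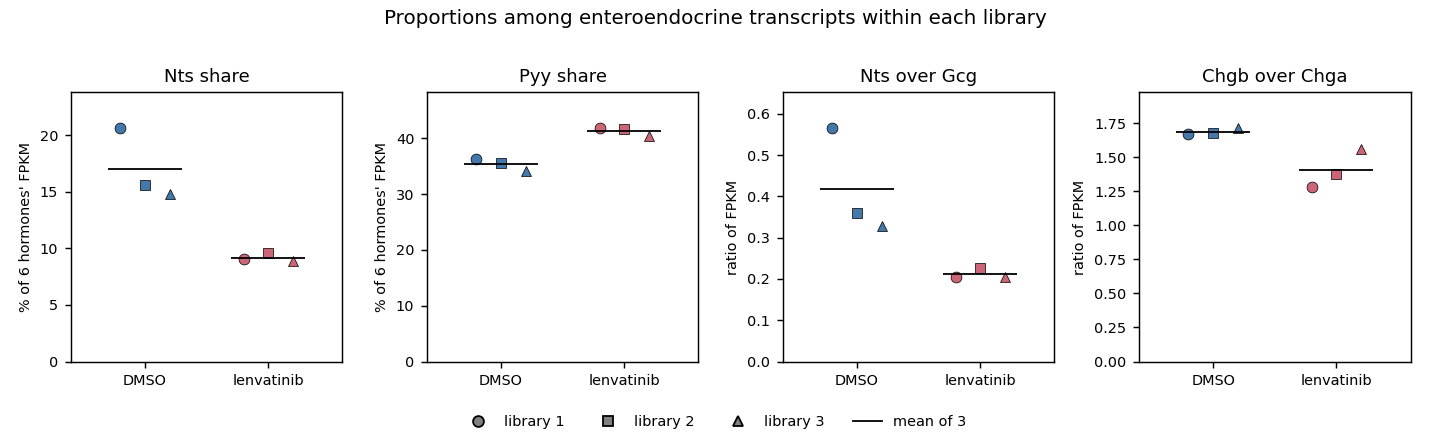
Share of Nts and of Pyy in the summed FPKM of 6 peptide hormone genes, and the ratios Nts to Gcg and Chgb to Chga, in each library (y axes from 0; lines are means of 3). The Nts share lies at 8.88 to 9.59% in lenvatinib and at 14.8 to 20.7% in DMSO.

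Chga and Chgb encode chromogranin A and chromogranin B, acidic proteins that help form secretory granules in most enteroendocrine cells. Chga measured 16.9, 28.7 and 26.8 FPKM in DMSO and 34.7, 28.6 and 27.3 FPKM in lenvatinib. Chgb measured 28.3, 48.2 and 46.1 FPKM in DMSO and 44.4, 39.5 and 42.6 FPKM in lenvatinib. Both had their lowest value in DMSO 1, at 0.611 and 0.599 times the mean of DMSO 2 and 3, whereas the peptide genes Nts, Sst and Pyy had their highest value there (1.90, 1.86 and 1.45 times).

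Neither granin passed the test. The difference of Chga was 0.34 (SE 0.206, 95% interval −0.16 to 0.84, limma adjusted p = 0.349) and 0.11 without DMSO 1. Scaled by median ratios or by quantiles, and in voom, its groups no longer overlapped, with lenvatinib higher. That of Chgb was 0.08 (SE 0.202, 95% interval −0.41 to 0.57, limma adjusted p = 0.823) and turned to −0.16 without DMSO 1 (limma adjusted p = 0.254). The ratio of Chgb to Chga was nearly the same in the DMSO libraries, at 1.67, 1.68 and 1.72, and lower in lenvatinib, at 1.28, 1.38 and 1.56. This ratio was chosen after the values were seen.

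**Figure D3:**
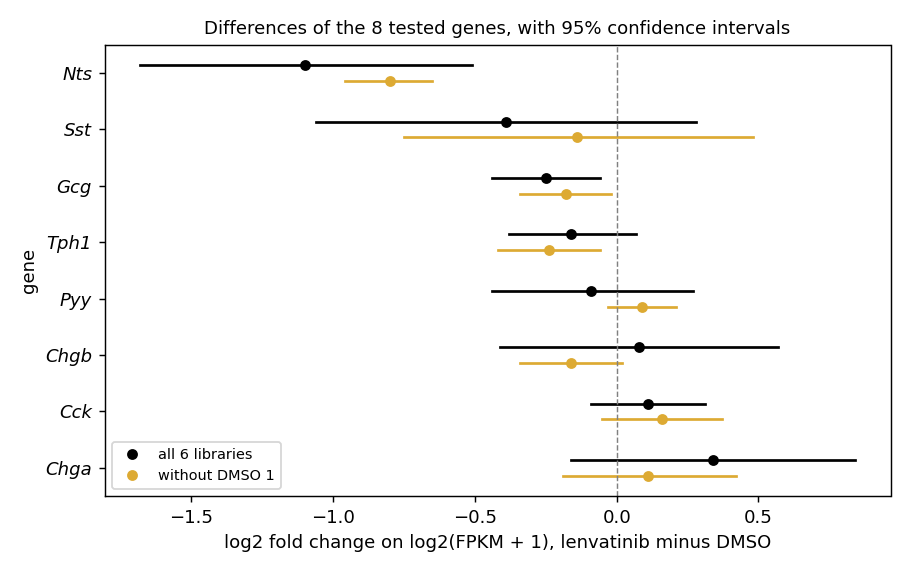
Log2 fold change of the 8 tested genes (x axis, lenvatinib minus DMSO on log2(FPKM + 1)) with 95% confidence intervals from limma, in all 6 libraries and without DMSO 1. Nts lies at −1.10 and −0.80, and Pyy and Chgb change sign without DMSO 1.

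Tph1 encodes tryptophan hydroxylase 1, the rate-limiting enzyme of serotonin synthesis in enterochromaffin cells, and mouse mast cells also use it. It measured 1.75, 2.26 and 2.24 FPKM in DMSO and 1.73, 1.78 and 1.78 FPKM in lenvatinib. DMSO 1 lay within the lenvatinib range and DMSO 2 and 3 above it. The difference was −0.16 (95% interval −0.38 to 0.07, limma adjusted p = 0.335) and −0.24 without DMSO 1 (limma adjusted p = 0.152). Mast cell markers moved with treatment in the same libraries: the 12 measured genes of that list summed to 218 to 238 FPKM in DMSO and 7.70 to 8.94 in lenvatinib, and 5 of 6 tested genes passed, all lower. With libraries 2 and 3 as a random block, which estimates their correlation, 3 of 6 passed, and with them averaged 2 of 6. Mcpt1, a protease of mucosal mast cells, was at 140 to 162 and 0.0254 to 0.548 FPKM, Mcpt2 at 53.4 to 56.2 and 0.0430 to 0.170, and the carboxypeptidase Cpa3 at 3.73 to 4.75 and 0.0349 to 0.0864. The part of mast cells in the Tph1 values was not tested.

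Neurod1 encodes a basic helix-loop-helix factor that drives enteroendocrine differentiation after NEUROG3. It measured 0.822, 0.970 and 0.750 FPKM in DMSO and 0.721, 0.728 and 0.827 FPKM in lenvatinib, from 69 to 96 reads. The groups overlapped (exact two-sided permutation p = 0.3), and the gene was under the level needed for the test over all genes.

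Beyond the 10 genes, 114 other genes of the enteroendocrine system were listed, of which 111 were in the table and 45 were tested. In limma 2 of 45 passed, both higher (Cpe and Adra2a), against 2.03% of all genes. The median log2 fold change of the 45 was 0.01, against −0.07 over all genes tested. Groups did not overlap for 17 of 45, against 27.5% of all genes.

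Among other gut peptide genes 0 of 7 tested passed, with 5 at an unadjusted p below 0.05 (2 higher, 3 lower). Over all genes tested this share was 22.0%. Sct, for secretin, which stimulates bicarbonate secretion, was the most abundant peptide gene of the list. It measured 90.9, 81.4 and 86.5 FPKM in DMSO and 43.4, 64.1 and 64.0 FPKM in lenvatinib. Its groups did not overlap, and the difference of −0.61 (SE 0.158) did not pass (limma adjusted p = 0.117). Nmu, for neuromedin U, measured 3.32, 1.54 and 1.41 FPKM in DMSO and 0.735, 0.909 and 0.948 in lenvatinib (−0.68, limma adjusted p = 0.174), with its highest value in DMSO 1 as for Nts. Without DMSO 1 the Nmu difference was −0.41 (limma adjusted p = 0.103). Gal, for galanin, which enteric neurons also make, measured 4.07 to 4.14 and 2.86 to 3.78 FPKM. Adm, for adrenomedullin, which is not limited to endocrine cells, measured 2.46 to 3.15 and 3.46 to 4.93 FPKM, and neither Gal nor Adm passed. Without lenvatinib 1, where 38.0% of all genes passed, 3 of the 7 passed. Ghrl, for ghrelin, chosen after its values were seen, had 4 reads in DMSO 1 and 20 to 32 reads in the other 5 libraries.

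Of 7 tested transcription factors 0 passed, with 1 at an unadjusted p below 0.05 (Atoh1). Atoh1, which commits progenitors to the secretory lineages including goblet cells, measured 29.9, 23.3 and 22.5 FPKM in DMSO and 17.0, 21.2 and 20.1 FPKM in lenvatinib. Its groups did not overlap (−0.36, limma adjusted p = 0.199). Neurog3, which marks enteroendocrine progenitors, measured 0.171, 0.836 and 1.20 FPKM in DMSO and 0.271, 0.183 and 0.218 FPKM in lenvatinib, too low for the test. DMSO 2 and 3 had 51 and 72 reads, and the remaining libraries, DMSO 1 among them, 10 to 16. Sox4 measured 8.39, 8.26 and 8.17 FPKM in DMSO and 9.78, 4.23 and 4.63 FPKM in lenvatinib (−0.44, limma adjusted p = 0.352). Hhex measured 1.74, 1.55 and 1.67 FPKM in DMSO and 1.71, 0.838 and 0.933 FPKM in lenvatinib (−0.32, limma adjusted p = 0.282). Foxa1 (−0.12) also overlapped between the groups. For each of these 3 genes lenvatinib 1 was the highest lenvatinib library. Without it Sox4 was at −0.77 and Hhex at −0.49 and both passed (limma adjusted p = 0.000889 and 0.00537), and Foxa1 was at −0.21, where 38.0% of all genes passed. Without DMSO 1 the Atoh1 difference was −0.23.

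Of 16 tested granule and processing genes 1 passed, with 4 at an unadjusted p below 0.05 (3 higher, 1 lower), against 22.0% of all genes tested. Cpe, for the carboxypeptidase that trims prohormones after cleavage, measured 47.4, 46.9 and 46.6 FPKM in DMSO and 59.6, 57.5 and 57.8 FPKM in lenvatinib. It rose by 0.30 on the log2 scale (SE 0.0505, limma adjusted p = 0.0437), but it missed the threshold in 12 of 21 alternatives, including without DMSO 1 (adjusted p = 0.0566) and with libraries 2 and 3 averaged (0.868). Without each of DMSO 2, DMSO 3, lenvatinib 2 and lenvatinib 3 it was lost as well. Cpe is also expressed by enteric neurons and stroma. Pcsk1n, for an inhibitor of prohormone convertase 1, measured 1.80 to 2.31 and 2.81 to 3.30 FPKM (0.39, limma adjusted p = 0.107), and Pam, for the enzyme that amidates peptides, 12.1 to 12.6 and 13.5 to 15.3 FPKM. The synaptotagmin gene Syt13 measured 5.44 to 6.35 and 4.28 to 5.32 FPKM. Pcsk1 and Pcsk2, which encode prohormone convertases, measured 2.09 ± 0.563 and 1.70 ± 0.131 FPKM and 0.361 ± 0.0677 and 0.390 ± 0.0175 FPKM in DMSO and lenvatinib. Scg2, for secretogranin II, measured 3.73 ± 0.294 and 3.63 ± 0.267 FPKM.

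**Figure D4:**
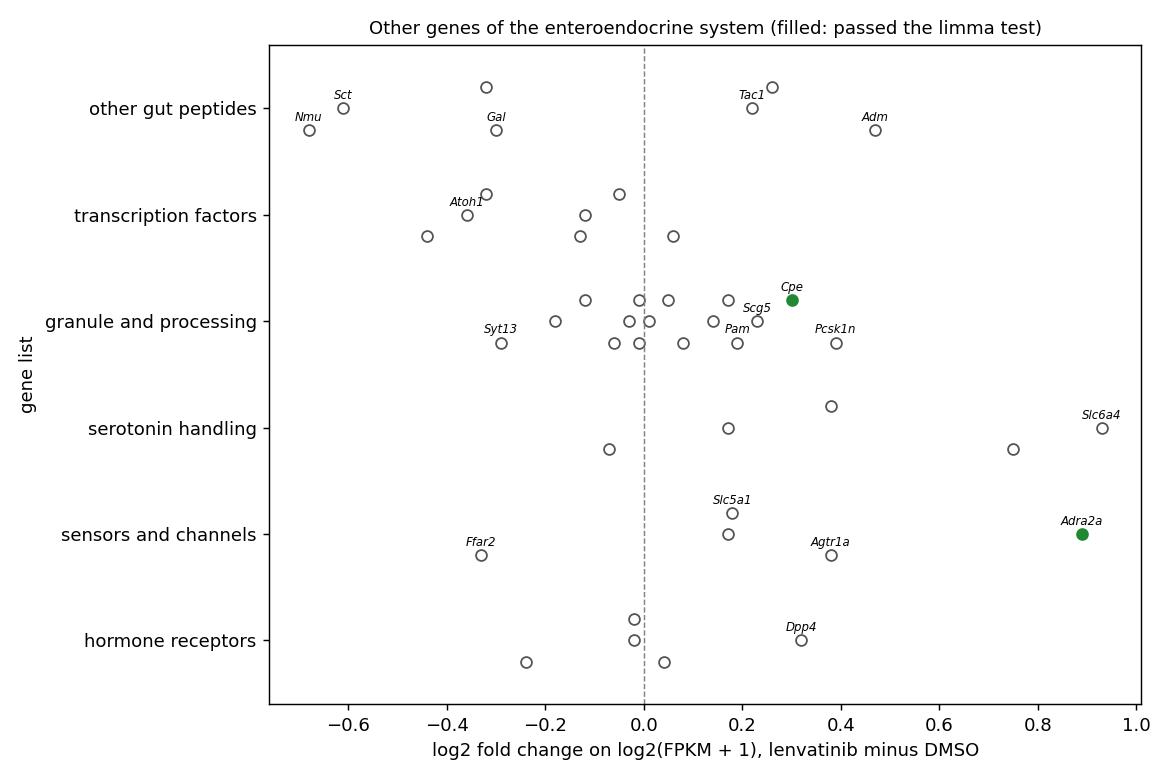
Log2 fold change (x axis, lenvatinib minus DMSO on log2(FPKM + 1)) of the 45 tested genes of 6 enteroendocrine lists, 1 point per gene, filled where the limma test passed and named where the groups did not overlap. Cpe and Adra2a are the 2 filled points, both above 0.

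Of 5 tested serotonin genes 0 passed, with 1 at an unadjusted p below 0.05. That gene, Slc6a4, encodes the transporter by which enterocytes clear serotonin. It measured 0.316, 0.744 and 0.626 FPKM in DMSO and 1.02, 2.71 and 2.45 FPKM in lenvatinib, without overlap (0.93, SE 0.252, limma adjusted p = 0.124). Maob and Maoa, for the oxidases that break serotonin down, and Ddc, for the decarboxylase that follows TPH1, showed the same order of libraries within lenvatinib, with lenvatinib 1 below lenvatinib 2 and 3. Ddc measured 10.3, 15.3 and 15.9 FPKM in DMSO and 11.8, 22.2 and 22.3 FPKM in lenvatinib, so the groups overlapped. Without lenvatinib 1, 4 of the 5 passed, all higher (Slc6a4, Maoa, Maob and Ddc), where 38.0% of all genes passed. Slc18a1, for the vesicular transporter of enterochromaffin cells, was at 0.285 to 0.332 and 0.315 to 0.382 FPKM. Slc18a2, the form used by neurons and mast cells, was at 0.319 to 0.346 and 0.288 to 0.455 FPKM.

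Of 5 tested sensor and channel genes 1 passed, with 4 at an unadjusted p below 0.05 (3 higher, 1 lower), against 22.0% of all genes tested. Adra2a, for an adrenergic receptor that enteroendocrine cells and other colon cells express, measured 44.4, 46.7 and 43.0 FPKM in DMSO and 65.5, 92.9 and 95.3 FPKM in lenvatinib. It rose by 0.89 (SE 0.148, limma adjusted p = 0.0445), but it missed the threshold in 12 of 21 alternatives, including without DMSO 1 (adjusted p = 0.0931), without each of DMSO 2, DMSO 3, lenvatinib 2 and lenvatinib 3, and with libraries 2 and 3 averaged (0.657). Ffar2, for a short-chain fatty acid receptor of L cells and leukocytes, measured 1.26, 1.26 and 1.27 FPKM in DMSO and 0.842, 0.668 and 0.912 in lenvatinib (−0.33, limma adjusted p = 0.117). Slc5a1, for the sodium-glucose cotransporter, measured 26.6 to 28.1 and 29.8 to 32.5 FPKM, and Agtr1a, for an angiotensin receptor, 1.65 to 2.92 and 2.98 to 3.16 FPKM, and Agtr1a passed without DMSO 1 (limma adjusted p = 0.0480).

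Receptors for the peptides and serotonin were mostly at low levels, with 20 of 25 measured genes under the level needed for the test and 0 of 5 tested genes passing, also at an unadjusted p below 0.05. Sort1, for sortilin, which binds neurotensin, measured 54.6 ± 2.59 and 53.8 ± 2.75 FPKM in DMSO and lenvatinib. The high-affinity neurotensin receptor gene Ntsr1 had 2 to 8 reads per library. Glp2r, for the receptor of glucagon-like peptide 2, measured 2.82 ± 0.625 and 2.92 ± 0.436 FPKM. Dpp4, for the peptidase that inactivates glucagon-like peptides, measured 3.27, 5.32 and 5.22 FPKM in DMSO and 5.94, 5.97 and 5.80 in lenvatinib (0.32, limma adjusted p = 0.278), a difference of 0.14 without DMSO 1. Npy4r, for a receptor of the peptide YY family, measured 1.11 to 1.21 and 0.384 to 1.21 FPKM. Npy1r, Npy2r, Sstr2 and Cckar were each below 0.7 FPKM in every library. Htr4, for a serotonin receptor of enteric neurons, measured 0.804 to 0.880 and 0.510 to 0.677 FPKM without overlap, below the level needed for the test.

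Other cell types that could hold these transcripts were read from marker lists in the same libraries. The 8 epithelial markers, among them Epcam, summed to 9040 to 9700 FPKM in DMSO and 9230 to 9830 in lenvatinib, with 0 of 8 passing and 2 at an unadjusted p below 0.05. Groups did not overlap for 7 of the 8, with 5 lower and 2 higher in lenvatinib, against 27.5% of all genes tested. On average Lgals4 went from 2670 FPKM in DMSO to 3540 in lenvatinib, Krt8 from 2490 to 2270 and Krt19 from 2040 to 1790. The similar sums therefore hide markers whose means differed in opposite directions, though none of these differences passed. Per 10000 FPKM of these markers, Nts was at 27.6, 15.4 and 15.6 in DMSO and 8.12, 8.09 and 7.70 in lenvatinib. Markers of the small intestine, where neurotensin and cholecystokinin cells are frequent, were higher with lenvatinib: 11 of 16 tested genes passed, all higher, and the 20 genes summed to 635 to 716 and 933 to 1230 FPKM. With libraries 2 and 3 as a random block 7 of 16 passed, with the replicate block 4, and with libraries 2 and 3 averaged 1. When DMSO 2, DMSO 3, lenvatinib 2 or lenvatinib 3 was left out, 5 of 16 passed. Fabp6, the ileal bile acid binding protein, was at 1.44 to 2.28 and 148 to 161 FPKM, and Apoa1, an apolipoprotein of enterocytes, at 0.208 to 0.506 and 6.16 to 40.3. Apoa1 missed the threshold with the random block (limma adjusted p = 0.136) and without DMSO 1 (0.0871). Fabp2, the most abundant of the list and named after its values were seen, was at 406, 535 and 540 FPKM in DMSO and 302, 479 and 462 in lenvatinib, a difference of −0.27 (limma adjusted p = 0.444). Nts was lower in the same lenvatinib libraries, and the part of small intestinal tissue in the hormone values was not tested.

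Enteric neuron markers, which bear on Chgb, Sst and Nts because some neurons use granins and neuropeptides, summed to 27.3 to 30.8 FPKM in DMSO and 31.0 to 33.1 in lenvatinib. None of the 7 tested genes passed. The 1 gene at an unadjusted p below 0.05 was Prph, for peripherin, at 3.49 to 3.98 and 4.57 to 5.76 FPKM (0.38, limma adjusted p = 0.110). Stmn2 (0.02), Tubb3 (−0.07) and Ret (−0.10) overlapped between the groups. Elavl4, below the level needed for the test, was at 0.193 to 0.216 and 0.304 to 0.391 FPKM without overlap, while Elavl3, at 0.0947 to 0.147 and 0.0646 to 0.127 FPKM, overlapped. The part of neurons in the granin values was not tested. Of the pancreatic markers Prss2, Pnlip and Nkx6-1 were listed at 0 in all 6 libraries. Only Cela1, which is also expressed outside the pancreas, reached the level needed for the test (33.2 FPKM on average in DMSO and 33.3 in lenvatinib). Tuft cell markers summed to 15.2 to 16.0 and 8.10 to 13.6 FPKM, with 0 of 2 tested genes passing and 1 at an unadjusted p below 0.05 (Avil). Most of this sum was Alox5ap, at 9.68 to 11.4 and 5.83 to 11.4 FPKM, which overlapped. Avil (1.30 to 1.66 and 0.476 to 0.794 FPKM), Dclk1 (0.974 to 1.32 and 0.628 to 0.749) and Pou2f3 were lower without overlap. Trpm5, Sh2d6, Il25 and Gfi1b overlapped.

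**Figure D5:**
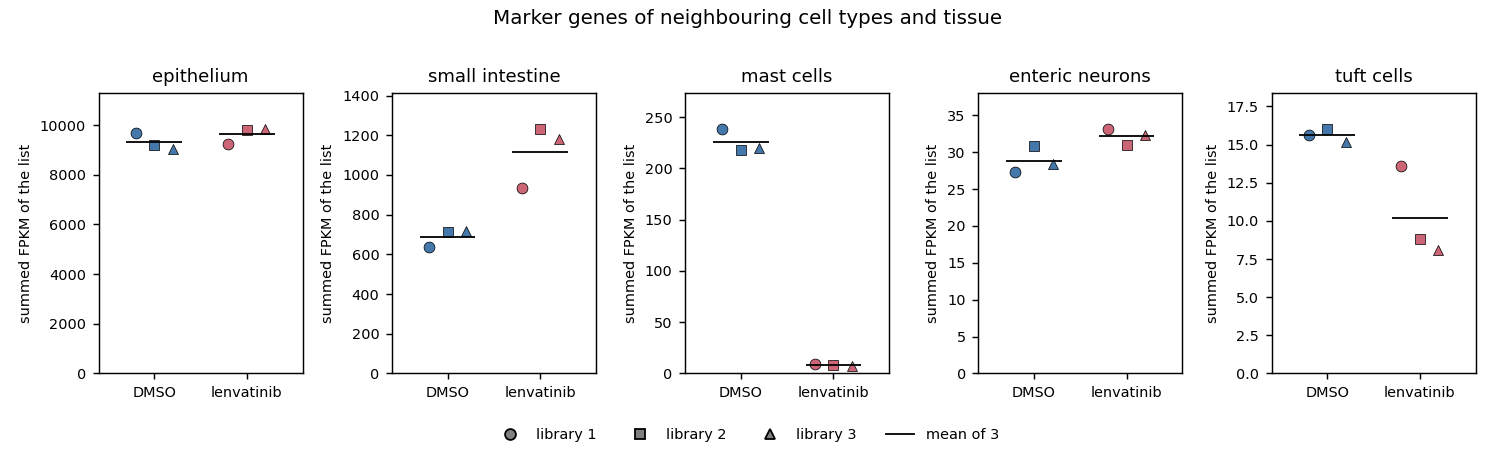
Summed FPKM of marker lists for epithelium, small intestine, mast cells, enteric neurons and tuft cells (y axes from 0) in each library, with the mean of 3 as a line. The mast cell sum is 218 to 238 in DMSO and 7.70 to 8.94 in lenvatinib, and the small intestine sum 635 to 716 and 933 to 1230.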

How the data were processed

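Total RNA came from a TRIzol extraction, and the VAHTS Universal V10 kit was used for libraries, per the labels' protocols. The authors deposited FPKM values for each of the 6 libraries. Per the submitters' processing notes, HTSeq was used with build GRCm39. Its version, the aligner, annotation and strand setting were not given in the sources used here, so how reads of overlapping genes were counted is not known.

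Whole reads were recovered from the FPKM steps for 23949 of 23951 genes above 0, within 0.01 reads (99.99%). The 11774 genes averaging 1 FPKM or more were tested on log2(FPKM + 1), pseudocount 1. The two-sided test was limma 3.58.1 (R 4.3.3), trend and robust options on, and p-values were adjusted over all genes by Benjamini-Hochberg at 0.05. This scale understates the change of low genes. Single genes were compared by exact permutation over 20 regroupings. The test was also run on simulated data in which libraries varied independently. That simulation cannot show how the test behaves with libraries as alike as libraries 2 and 3 were here. The 10 genes, the 12 other lists and the 21 alternatives were chosen with earlier results of these data known. Besides the 10 genes, those named are up to 4 of each list by unadjusted p, known partners of the 10, and defining markers of other cells. Listed genes that were not in the table, such as Gast, Ins1 and Ins2, were not analysed here. Promoter sequences are from RefSeq.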

Additional observations from a re-analysis of the deposited data

How the results depend on the processing

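The main result, 0 of 8 enteroendocrine genes passing, held in every alternative except sample weights (4), leaving out both libraries numbered 1 (5, an alternative chosen after seeing the data, as was scaling by epithelial markers) and leaving out 1 library (0 to 1). Where DMSO 1 or lenvatinib 1 was left out the gene that passed was Nts. Without both libraries numbered 1, Chgb reversed to −0.20 (adjusted p = 0.00830) and Pyy to 0.09 (adjusted p = 0.0402), with 2 libraries a group that were nearly identical. The count of 2 genes without overlap (27.5% of all genes) became 6 there (82.5% of all genes) and 2 to 6 when 1 library was left out. Of all genes, 47.9% did not overlap without DMSO 1, 66.3% without lenvatinib 1 and 30.3 to 31.5% without any other library. Over all genes, 239 calls became 140 with no filter, 7582 with sample weights, 29 with the replicate block, 46 with libraries 2 and 3 as a random block, 3 with them averaged, 7319 without both libraries numbered 1, and 45 to 4479 when 1 library was left out (highest without lenvatinib 1). Of the 45 other enteroendocrine genes, 2 calls became 1 with a filter at 0.1 FPKM, median-ratio scaling, scaling without the 10 most abundant genes, no trend and robust prior, voom and scaling by epithelial markers. They became 0 with no filter, the replicate block, the random block and averaging, 27 with sample weights, 26 without both libraries numbered 1, and 0 to 15 when 1 library was left out. The cause was not tested.

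For libraries with the same number, the correlations of deviations from the group means were −0.196, −0.159 and −0.151. The nearly identical libraries within each group deviate together, so these correlations are not independent of each other. They cannot decide whether the number pairs samples. Under the replicate block the adjusted p of Nts was 0.190. No scaling moved the median of all genes by more than 0.08 on the log2 scale. Of the count methods only voom was run, on the recovered reads, while edgeR and DESeq2 were not run. Depth limits Insl5 (0 to 4 reads) and Cck (55 to 73 reads).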
